A study of Mus musculus with 7 samples.

Results

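Vasopressin, oxytocin, vasoactive intestinal peptide (VIP) and prokineticin 2 are neuropeptides of the suprachiasmatic clock nucleus and of the neurohypophysial system. The 10 genes described here encode these 4 peptides (Avp, Oxt, Vip and Prok2) and 6 of their receptors (Avpr1a, Oxtr, Vipr1, Vipr2, Prokr1 and Prokr2). They were chosen by name, as signals that cells of the anteroventral periventricular nucleus (AVPV) could send or receive before the surge of luteinizing hormone. The choice was made with earlier results of these data known, so shares set beside all genes describe the genes and test nothing. Each symbol matched exactly 1 of the 55384 gene identifiers listed, and all 10 passed the filter on low counts, as did 18282 genes in all.

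RNA on HA-tagged ribosomes was sequenced from AVPV tissue of female C57BL/6 mice with the genotype Kiss1Cre+/Rpl22HA+/+, in which Cre driven from Kiss1 switches on the tag. Cre recombination is permanent, so the tag marks cells that expressed Kiss1-driven Cre at any age, and RNA of untagged cells can be carried along in the pulldown. There were 4 libraries from ovariectomized females without estradiol (GDX) and 3 from females given estradiol (E2), and all 7 carried the same genotype, each from a pool of 4 brains. Whether the E2 females were also ovariectomized, the age of the mice, the estradiol dose and the time of day were not given in the sources used here. Since each library is a pool, p-values measure the spread between pools. In such bulk samples fewer cells of a type and less RNA per cell cannot be told apart.

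Suprachiasmatic neurons that make vasopressin project to AVPV kisspeptin cells, which carry the V1a receptor encoded by Avpr1a. VIP from the ventral part of the same nucleus reaches gonadotropin-releasing hormone neurons through the VPAC2 receptor encoded by Vipr2. Prokineticin 2 is a secreted clock output that signals through the receptors encoded by Prokr1 and Prokr2, and loss of PROKR2 or PROK2 function causes Kallmann syndrome in people. The oxytocin receptor gene is a known estrogen-responsive gene in uterus and hypothalamus. V1a, oxytocin and prokineticin receptors couple mainly to Gq proteins and calcium release, while the VIP receptors raise cyclic AMP through Gs.

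Among the peptide genes Prok2 rose with estradiol, 4.57-fold, from a GDX mean of 5.21 ± 1.53 CPM (SD, n = 4) to an E2 mean of 23.8 ± 3.96 (SD, n = 3), where CPM is the count scaled to a common library size. Among the receptor genes Oxtr rose, 3.07-fold, from 4.10 ± 0.443 to 12.6 ± 0.722 CPM. The other 8 genes did not pass the edgeR quasi-likelihood test at an adjusted p of 0.05. Thus 2 of 10 genes were higher and none was lower, beside 2.55% higher and 1.33% lower (3.88% in either direction) over all genes tested. At an unadjusted p under 0.05 there were 6 of the 10, beside 16.8% of all genes, and the libraries of the groups did not overlap for 5 of the 10, beside 16.5% of all genes. The 5 were Prok2, Oxtr and Vip, higher in E2, and Avpr1a and Prokr2, lower in E2.

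**Figure D1:**
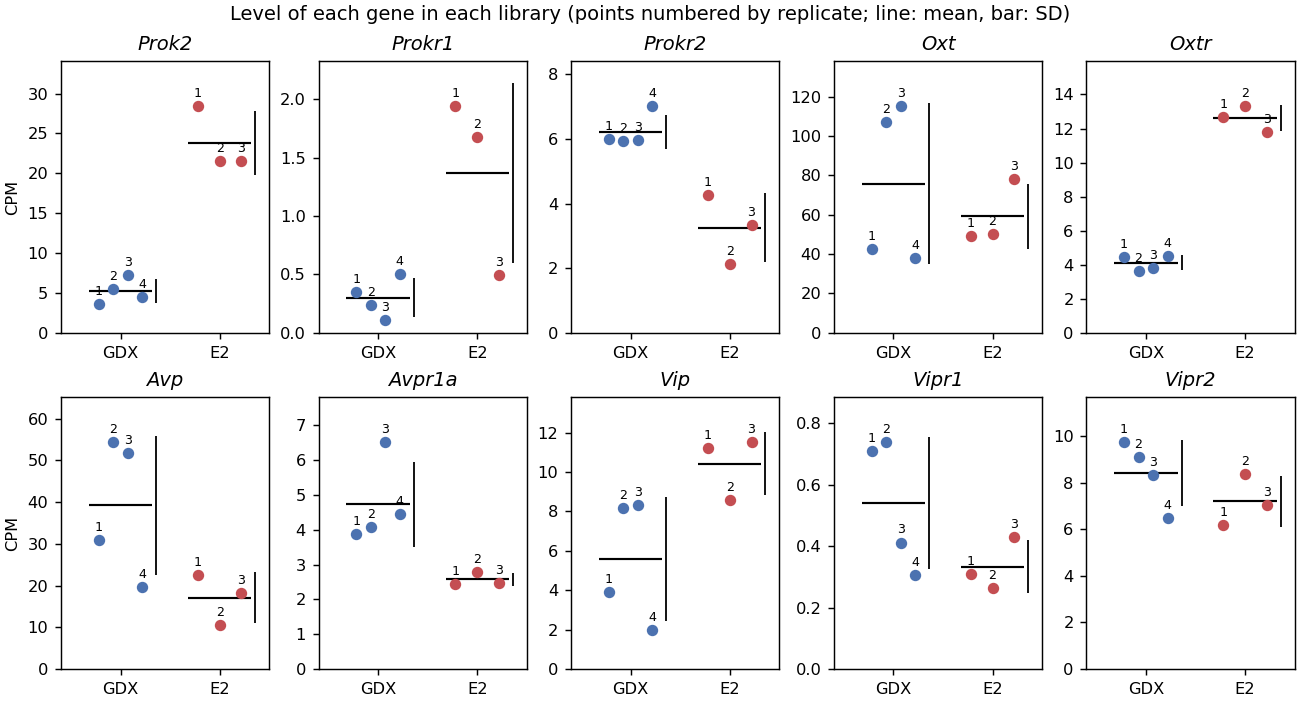
CPM (y axis, linear, from 0) of each of the 10 genes in the 4 GDX and 3 E2 libraries (x axis), with points numbered by replicate, a line at the group mean and a bar of 1 SD. The E2 libraries lie above all GDX libraries for Prok2 (21.5 to 28.4 against 3.63 to 7.20 CPM), Oxtr and Vip, and below them for Avpr1a and Prokr2.

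Prok2 (ENSMUSG00000030069) lies on the minus strand of chromosome 6, from 99711299 to 99726392 (GRCm38), and no other annotated gene shares bases with its exons. Its level was 3.63, 5.50, 7.20 and 4.52 CPM in GDX replicates 1 to 4. In E2 replicates 1 to 3 it was 28.4, 21.5 and 21.5 CPM. The lowest E2 library was thus well above the highest GDX library, and within GDX the spread of 29.3% exceeded the counting error of 7.45%. On the log2 scale E2 exceeded GDX by 2.19 ± 0.22 (SE), with a 95% interval of 1.72 to 2.67 and an adjusted p of 0.000116 by edgeR. The call held in each of the 17 alternative fits run for it, with log2 fold changes from 1.60 with a covariate scoring non-neuronal markers to 2.39 without GDX replicate 3.

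Oxtr (ENSMUSG00000049112) lies on the minus strand of chromosome 6, from 112473683 to 112489943, and shares no exon bases with another annotated gene. Its level was 4.47, 3.66, 3.79 and 4.50 CPM in GDX replicates 1 to 4. In E2 replicates 1 to 3 it was 12.7, 13.3 and 11.8 CPM. Both groups were narrow, with a spread of 10.8% in GDX and 5.73% in E2, close to the counting errors of 8.36% and 5.06%. The log2 fold change was 1.62 ± 0.17, with a 95% interval of 1.24 to 1.99 and an adjusted p of 0.000178. It stayed between 1.55 and 1.81 in the 17 alternative fits run for it, all of which kept the call.

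The sequence before the start site of Prok2 is shown because it can be read for letters of the estrogen receptor's and the clock factors' binding motifs, and those of Avp and Oxt are shown beside it as the neighbouring peptide genes. The motifs searched on both strands were the E-box CACGTG, bound by the CLOCK and BMAL1 factors, and the estrogen response element in its full form, GGTCA and TGACC separated by 3 bases, and as the single arm GGTCA. The cyclic AMP response element TGACGTCA and its core TGACG were also searched. The arm is part of the full estrogen element, and the core is part of the full cyclic AMP element. Sequences are from RefSeq on GRCm38.p6, cover the 250 bases before the RefSeq start site, and have each match in capitals. For Oxtr the annotations differ: 118 of the 250 bases (chr6:112489826-112490075, minus strand) lie inside the GENCODE gene, in the untranslated part of its first exon, so that window is not printed. The windows of the other 9 genes lie outside their GENCODE genes.

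Prok2, chr6:99726393-99726642, minus strand: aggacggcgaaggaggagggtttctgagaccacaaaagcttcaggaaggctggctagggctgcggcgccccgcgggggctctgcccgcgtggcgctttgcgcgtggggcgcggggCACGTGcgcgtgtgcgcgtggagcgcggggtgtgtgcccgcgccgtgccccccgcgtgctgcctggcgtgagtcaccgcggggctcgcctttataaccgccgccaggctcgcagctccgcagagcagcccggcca
Avp, chr2:130582589-130582838, minus strand: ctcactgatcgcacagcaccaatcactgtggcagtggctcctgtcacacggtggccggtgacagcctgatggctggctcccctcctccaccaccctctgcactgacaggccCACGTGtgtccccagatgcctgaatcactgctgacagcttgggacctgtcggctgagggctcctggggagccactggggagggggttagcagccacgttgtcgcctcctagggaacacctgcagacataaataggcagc
Oxt, chr2:130575919-130576168, plus strand: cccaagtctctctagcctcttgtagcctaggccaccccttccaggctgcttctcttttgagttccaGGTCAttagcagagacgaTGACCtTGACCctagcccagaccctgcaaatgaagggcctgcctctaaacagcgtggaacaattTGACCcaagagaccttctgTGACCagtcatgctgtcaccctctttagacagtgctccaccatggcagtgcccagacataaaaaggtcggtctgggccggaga

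The E-box stood in the windows of 3 of the 10 genes, Prok2, Oxtr and Avp, and in 6.02% of 32851 promoter windows of the same length. The arm GGTCA stood in 3 of 10 (Oxt, Oxtr and Prokr2) and in 35.2% of all windows, with 5 copies in Oxt. The core TGACG stood in 3 of 10 (Avpr1a, Vip and Vipr1) and in 17.8%. Neither the full estrogen element (0.0639% of all windows) nor the full cyclic AMP element (1.55%) was found in the 10. These matches describe letters in the windows. They show neither binding nor what moved a gene. Oxtr alone among the 10 held both the E-box and the arm GGTCA, and both lie in the 118 bases that GENCODE places within the gene, while Prok2 held the E-box only and Oxt the arm only.

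The prokineticin receptor genes had fitted differences of opposite sign. Prokr2 lies on the minus strand of chromosome 2 (132337733 to 132385447) and Prokr1 on that of chromosome 6 (87578591 to 87590743). Prokr2 was 6.00, 5.94, 5.96 and 7.01 CPM in GDX replicates 1 to 4 and 4.28, 2.14 and 3.34 CPM in E2 replicates 1 to 3. All E2 libraries lay below all GDX libraries, but the fitted log2 ratio of E2 to GDX, −0.93 ± 0.26, missed the threshold (adjusted p = 0.0758 by edgeR). Prokr2 passed with the DESeq2 Wald test (adjusted p = 0.0103), with limma-voom (0.047) and without a low-count filter (0.0187), so its side of the threshold depends on the test. Prokr1 was scarce, with 13, 7, 4 and 18 counts in the GDX libraries and 63, 51 and 15 counts in the E2 libraries.

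The mean of Prokr1 was 0.300 ± 0.168 CPM in GDX against 1.37 ± 0.771 in E2. E2 replicate 3 (0.495 CPM) lay just under GDX replicate 4 (0.503 CPM), so the groups touched. The log2 fold change of Prokr1 was 2.18 ± 0.64, with a 95% interval of 0.77 to 3.58 that is not adjusted for the number of genes, and an adjusted p of 0.0965 by edgeR. It passed with the DESeq2 Wald test (adjusted p = 0.0308) and without a low-count filter (0.0133). Within a library the CPM of Prokr2 was 13.9 to 54.2 times that of Prokr1 in GDX and 1.27 to 6.73 times in E2. This ratio, read only between libraries because the genes differ in length, did not overlap between the groups. It restates the opposite differences of both genes, and how often ratios of other genes separate was not counted.

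**Figure D2:**
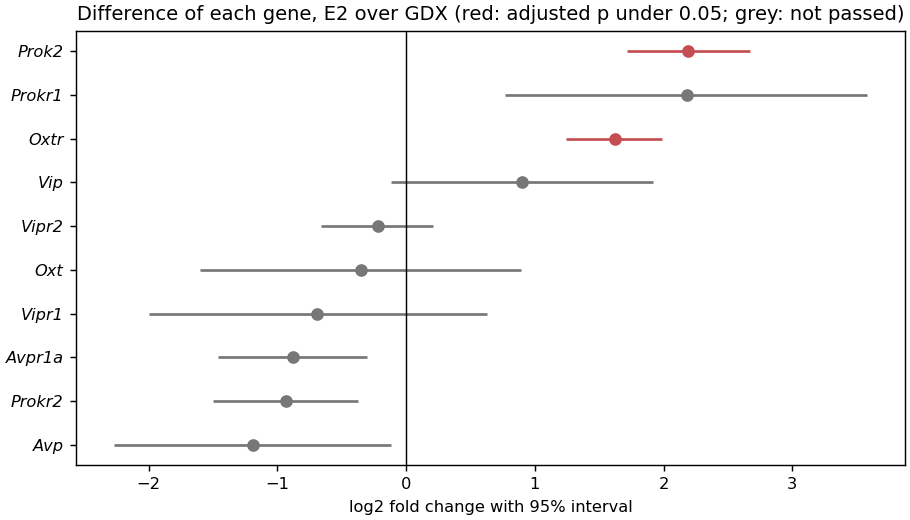
Log2 fold change, E2 over GDX (x axis), with its 95% interval from the edgeR fit for each of the 10 genes (y axis), in red where the adjusted p was under 0.05. Prok2 and Oxtr are in red at 2.19 and 1.62, and the intervals of Avp, Avpr1a, Prokr1 and Prokr2 exclude 0 without passing once adjusted over all genes.

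Avp and Oxt, which encode vasopressin and oxytocin with their neurophysin carriers, lie 3565 bp apart on chromosome 2 and point towards each other. Avp (ENSMUSG00000037727) covers 130580620 to 130582554 on the minus strand and Oxt (ENSMUSG00000027301) 130576173 to 130577054 on the plus strand. Their neurophysin coding sequence is so alike that a run of 127 bases is identical in both transcripts, all of it coding and spanning the junction of exons 1 and 2. It is printed once, since it bears on how reads were divided. In the genome its ends lie at chr2:130581133-130582411 for Avp and chr2:130576328-130576715 for Oxt, each including an intron.

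Avp and Oxt, shared coding run: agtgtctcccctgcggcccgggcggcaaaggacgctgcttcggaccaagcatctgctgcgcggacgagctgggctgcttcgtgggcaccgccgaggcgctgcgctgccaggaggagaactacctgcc

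Of the stretches of 25 bases in the transcripts, 18.6% of those of Avp and 20.1% of those of Oxt were shared between these genes. The deposited counts of Avp and Oxt were not whole numbers in any of the 7 libraries, whereas those of the other 8 genes were whole in all 7. The sum of Avp and Oxt was whole in every library within a tolerance of 0.02, for example 2704 counts in GDX replicate 1 and 1852 counts in E2 replicate 2. The division between both genes is therefore an estimate, and the sum is given beside the single values.

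Avp was 31.0, 54.3, 51.8 and 19.7 CPM in GDX replicates 1 to 4 and 22.6, 10.6 and 18.1 CPM in E2 replicates 1 to 3. GDX replicate 4 lay within the E2 range, and E2 replicate 2 was the lowest of all. The log2 ratio was −1.19 ± 0.44 and missed the threshold (adjusted p = 0.25 by edgeR, 95% interval −2.27 to −0.12 before adjustment). Without GDX replicates 1 and 4, which held the most astrocyte RNA and were left out together after the data were seen, it was −1.64 with an adjusted p of 0.0386. Over the other alternatives Avp did not pass.

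Oxt was 42.7, 107, 115 and 38.1 CPM in GDX replicates 1 to 4 and 49.0, 50.4 and 78.3 CPM in E2 replicates 1 to 3. GDX replicates 2 and 3 were high and the other 2 lay below every E2 library, so the E2 values lay inside the GDX range. The log2 ratio was −0.35 ± 0.50 (adjusted p = 0.812), and as a fold its 95% interval ran from 0.330 to 1.85. The sum of both genes had a mean of 115 ± 57.2 CPM in GDX against 76.4 ± 18.2 in E2, a log2 ratio of −0.59 ± 0.46 (adjusted p = 0.616). The CPM of Oxt was 1.38 to 2.22 times that of Avp in GDX and 2.16 to 4.75 times in E2.

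Vip (ENSMUSG00000019772, chromosome 10, 5639218 to 5647617, plus strand) was 3.90, 8.15, 8.30 and 1.98 CPM in GDX replicates 1 to 4. In E2 replicates 1 to 3 it was 11.2, 8.57 and 11.5 CPM. Every E2 library was above every GDX library, but by only 8.57 against 8.30 CPM at the nearest point. With a spread of 56.4% in GDX, against a counting error of 7.26%, the log2 ratio of 0.90 ± 0.44 missed the threshold (adjusted p = 0.361). It ranged from 0.05 with the non-neuronal covariate to 1.16 without GDX replicate 3, was 0.34 without GDX replicates 1 and 4, and passed only without a low-count filter (adjusted p = 0.00886). The CPM of Vip was 0.101 to 0.160 times that of Avp in GDX and 0.496 to 0.807 times in E2, with no overlap. It restates the opposite differences of both genes, and how often ratios of other genes separate was not counted.

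Some markers of neighbouring nuclei followed the uneven peptide genes across libraries and others did not. Lhx1, a transcription factor gene of suprachiasmatic neurons, was 2.78, 4.56, 3.27 and 1.31 CPM in GDX replicates 1 to 4 and 2.93, 1.48 and 3.20 CPM in E2. GDX replicate 4 and E2 replicate 2 were the lowest for Lhx1, and Avp was lowest within each group in the same libraries. Six6, another such gene, was also lowest there, at 1.06 and 0.857 CPM against 1.79 to 2.86 CPM elsewhere, though it overlaps 4930447C04Rik on the opposite strand over 192 bp, which unstranded libraries cannot separate. Among the 9 suprachiasmatic markers 5 were lowest in GDX replicate 4 and 6 in E2 replicate 2 within their groups, and 4 (Six6, Lhx1, Nms and Six3) in both. Six3 also overlaps an opposite-strand gene, Six3os1, over 106 bp, and its E2 values lay close together (44.5, 41.7 and 52.4 CPM). Nms was scarce, at 0.391 to 1.34 CPM in GDX and 0.527 to 1.19 in E2, with counting errors of 18.4% and 19.4%. Of the 9, Vax1 was lowest in GDX replicate 4 only, and Rgs16 and Syt10 in E2 replicate 2 only. Syt10 (15.9 CPM there) had its highest GDX value in replicate 4 (14.7). Rora was highest of all in E2 replicate 2 (30 CPM). Rorb was highest or tied for it within its group in GDX replicate 4 (59.3) and E2 replicate 2 (49.1). Vip shared the low value of GDX replicate 4 but was also low in GDX replicate 1, where Lhx1 was not. GDX replicates 1 and 4, the lowest GDX libraries for Avp, Oxt and Vip alike, were also those with the most astrocyte RNA (6 markers summed to 2050 and 2620 CPM, against 518 to 606 in E2).

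Otp, a transcription factor gene of magnocellular neurons, was 9.08, 18.1, 16.3 and 6.09 CPM in GDX and 11.1, 10.9 and 11.8 CPM in E2, with its highest values in the same GDX replicates 2 and 3 as Oxt. Sim1, which works with it, was 0.396 to 4.03 CPM. GDX replicates 2 and 3 were the highest GDX libraries for 4 of the 7 magnocellular markers (Sim1, Otp, Calb2 and Cited1). Pou3f2 (15.2, 13.7, 12.3 and 13.6 CPM) and Nos1 (140, 138, 126 and 139 CPM) were instead lowest in GDX replicate 3, where Oxt was highest, and Pdyn was highest in GDX replicates 3 and 4. The markers described singly and these libraries were picked after the values were seen. Markers of neurons in general had part of the same pattern. The 6 pan-neuronal markers summed to 3910, 4200, 4420 and 3710 CPM in GDX replicates 1 to 4. That sum was thus also highest in GDX replicates 2 and 3 and lowest in GDX replicate 4. In E2 replicates 1 to 3 it was 4150, 4480 and 4200 CPM, not lowest in replicate 2. How many of all genes have these patterns was not counted. Over the whole lists, none of 9 suprachiasmatic and none of 7 magnocellular markers was at 0. The 9 suprachiasmatic markers summed to 201 to 240 CPM in GDX and 177 to 198 CPM in E2, and the 7 magnocellular markers to 455 to 558 and 463 to 481 CPM. The largest GDX means in these sums were of Rgs16 (74.3), Rorb (56.2) and Six3 (43.6), and of Pdyn (174), Nos1 (136) and Calb2 (131). Six6 (2.29), Lhx1 (2.98), Sim1 (2.45) and Otp (12.4) added little, so the sums do not show their lows. By edgeR 1 suprachiasmatic marker was higher in E2 (Syt10) and 1 lower (Rgs16), and of the magnocellular markers 2 were higher (Cited1 and Nos1) and 1 lower (Pdyn). None of the 6 astrocyte markers passed, though 4 of 6 had an unadjusted p under 0.05 and their median log2 ratio was −0.76. Over all genes tested by edgeR 2.55% were higher and 1.33% lower (3.88% in either direction). An unadjusted p under 0.05 was reached by 16.8% of them, and their median log2 ratio was 0.00. The marker lists are short, so their counts beside these shares are descriptions only. The part of neighbouring nuclei or of astrocyte RNA in the values of Avp, Oxt and Vip was not tested.

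**Figure D3:**
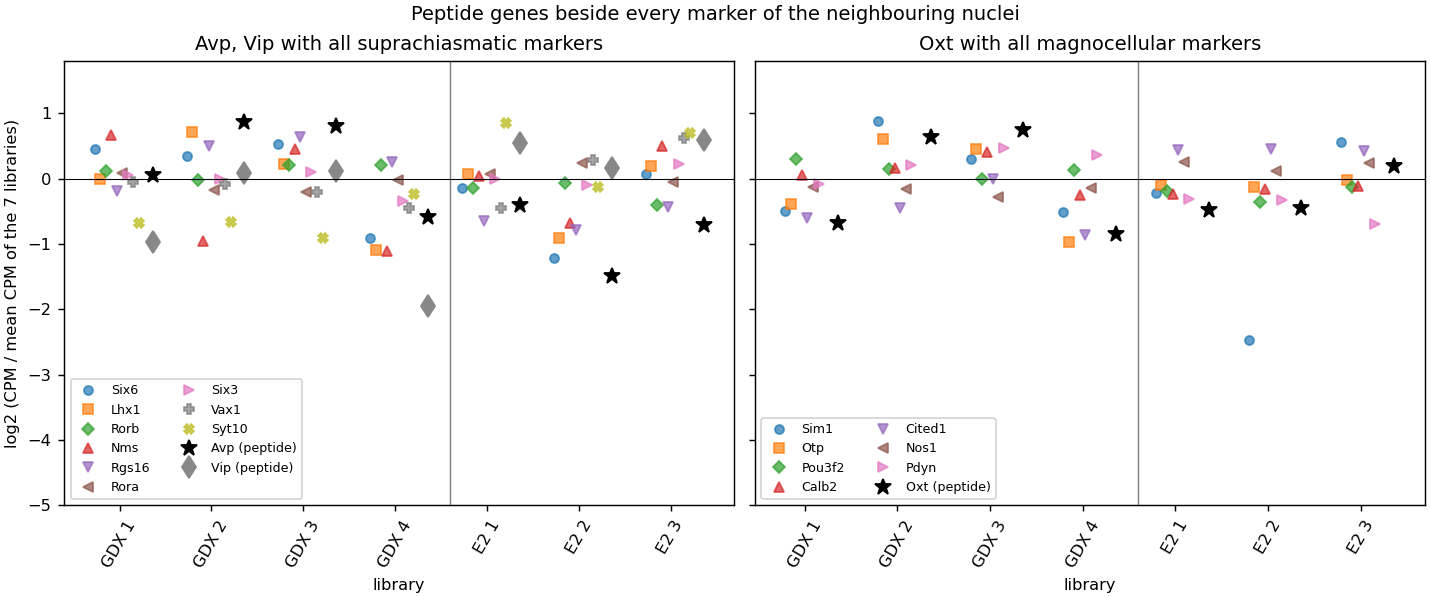
Log2 ratio of CPM to the mean of the 7 libraries (y axis) for Avp, Oxt and Vip, beside all 9 suprachiasmatic markers (Avp and Vip) or all 7 magnocellular markers (Oxt), in each library (x axis). Of the markers, 4 of 9 share the lows of Avp in GDX replicate 4 and E2 replicate 2, and 4 of 7 share the highs of Oxt in GDX replicates 2 and 3, while Rorb, Rora, Pou3f2 and Nos1 do not. How many of all genes share these patterns was not counted. Within GDX the sum of 6 pan-neuronal markers, not drawn, was also lowest in replicate 4 and highest in replicates 2 and 3.

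The receptor genes Avpr1a and Vipr2 held moderate counts and varied less than the peptides. Avpr1a (ENSMUSG00000020123, chromosome 10, 122448499 to 122453452, plus strand) was 3.87, 4.09, 6.51 and 4.44 CPM in GDX replicates 1 to 4. In E2 replicates 1 to 3 it was 2.44, 2.80 and 2.48 CPM, below every GDX library. The log2 ratio of −0.88 ± 0.27 missed the threshold in edgeR (adjusted p = 0.105), but passed with the DESeq2 Wald test (adjusted p = 0.03). The CPM of Oxtr was 0.582 to 1.15 times that of Avpr1a in GDX and 4.73 to 5.23 times in E2. This separation follows from Oxtr being higher and Avpr1a lower in every E2 library, and is no further result.

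Vipr2 (chromosome 12, 116077726 to 116146261, plus strand) was 9.73, 9.12, 8.32 and 6.48 CPM in GDX and 6.20, 8.37 and 7.04 CPM in E2, with overlapping groups. Its log2 ratio was −0.22 ± 0.20 (adjusted p = 0.651), and the 95% interval of the fold, 0.633 to 1.16, excludes a rise or fall of 2-fold. Vipr1, the gene of the VPAC1 receptor (chromosome 9, 121642716 to 121672954, plus strand), had 8 to 26 counts per library, or a mean of 0.542 ± 0.215 CPM in GDX against 0.334 ± 0.0857 in E2. Its counting error alone was 23.2% in GDX and 31.1% in E2. The log2 ratio was −0.69 ± 0.60 (adjusted p = 0.643), and the interval of the fold, 0.249 to 1.54, includes a 2-fold fall. The CPM of Vipr2 was 12.4 to 31.8 times that of Vipr1 across the 7 libraries, with overlapping groups.

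Per kilobase of exon, where genes can be compared with each other, Oxt had the highest level in GDX at 141 ± 76.3 CPM per kb, ahead of Avp at 67.9 ± 28.9 and Prok2 at 2.72 ± 0.798. Oxt and Avp overlapped, and Avp was separate from Prok2. Prok2, Vipr2 (1.89), Avpr1a (1.77), Vip (1.64), Oxtr (0.857) and Prokr2 (0.786) each overlapped the next in that order, and the gap to Vipr1 (0.0934) and Prokr1 (0.0710) was clear. In E2 the order was Oxt (110), Avp (29.7), Prok2 (12.4), Vip (3.06), Oxtr (2.63), Vipr2 (1.61), Avpr1a (0.963), Prokr2 (0.411), Prokr1 (0.325) and Vipr1 (0.0575). There only Vip with Oxtr and Prokr2 with Prokr1 overlapped. Oxtr thus stood below Vipr2 and Avpr1a in GDX and above both in E2. Exon lengths were the union of annotated exons, so a gene with long rare exons, such as Vip with its retained intron, can be placed too low. The same holds for Prokr2, with 7919 bases of exon against 4486 in its longest transcript. The order and overlaps given are those for the union lengths.

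**Figure D4:**
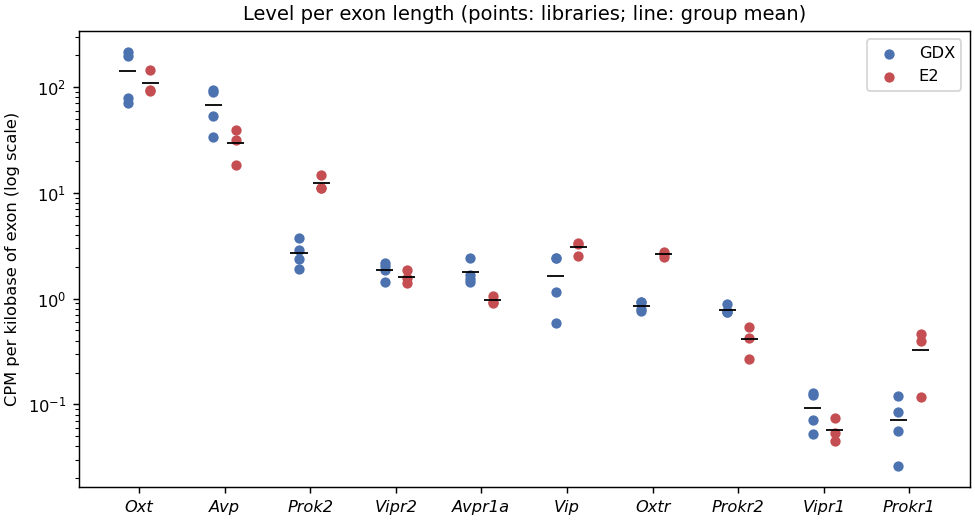
CPM per kilobase of exon (y axis, log scale) of the 10 genes (x axis, in the GDX order) in each GDX and E2 library, with a line at each group mean. Oxt and Avp lie above 18 CPM per kb in every library, and Prok2 (12.4 in E2) and Oxtr (2.63 in E2) are shifted up from GDX.

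Genes whose log2 CPM was most like that of each called gene over the 7 libraries were sought among 11638 genes. These had a mean of at least 5 CPM over all 7 libraries and a symbol that is not a predicted-gene one (Gm or RIKEN). For Oxtr the most alike were Pth2r (Pearson r = 0.998), Chrnb4 (0.996), a nicotinic receptor subunit gene, and Rasd1 (0.995). Pth2r (mean 2.06 CPM in GDX, 12.4 in E2) and Chrnb4 (3.96 and 17.6) reached the mean of 5 CPM only through E2. The filter thus let in genes high in E2 that their GDX level would have left out. For Prok2 the most alike were Rims4 (0.997), Sez6l2 (0.997), whose level is uncertain because it shares 413 bp of exon with Gm21984 on the same strand, and Sfxn1 (0.994). As all differ between 7 libraries in 2 groups, such values describe mainly that shared difference, and 196 genes for Oxtr and 176 for Prok2 had r over 0.95. The 3 genes named for Oxtr had log2 fold changes of 2.15 to 2.59, and the 3 named for Prok2 had 0.33 to 0.64. These are only 3 of the 196 and 3 of the 176, and Pth2r and Chrnb4 passed the filter only through E2. The contrast therefore describes the genes picked, and was not tested for the others.

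Of 15 tested genes among 17 other ligands, receptors and handling genes of these peptides, 2 rose and none fell. Over all genes 2.55% were higher and 1.33% lower, and the median log2 fold change was 0.14 for the list beside 0.00. This list was made with earlier results of these data known, so its share beside all genes is a description only. With library sizes alone the 2 calls were 1 higher and 1 lower, and DESeq2, limma-voom and the fit without a low-count filter each called 1 lower (with 3, 3 and 4 higher). Creb3l1, whose product is a transcription factor known to act on the vasopressin gene, was among them, at 9.77 ± 0.814 CPM in GDX against 91.8 ± 8.95 in E2 (log2 ratio 3.23 ± 0.11, adjusted p = 1.92e-08 by edgeR), while Avp itself did not pass. Mrap2, whose product is an accessory protein that restrains prokineticin receptors, was the other, at 64.9 ± 8.70 against 86.6 ± 3.21 CPM (0.42 ± 0.10, adjusted p = 0.0434). Leaving out GDX replicate 1, GDX replicate 2 or any 1 E2 library left 1 call in place of 2. Adcyap1, the gene of PACAP, was at 14.8 and 21 CPM and did not pass (0.50, adjusted p = 0.199). Avpr2, the gene of the kidney vasopressin receptor, was 0.449 and 0.257 CPM and overlaps Arhgap4 on the opposite strand over 2347 bp, which leaves its level uncertain. Avpr1b, the pituitary vasopressin receptor gene, had 0 counts in all 7 libraries, which allows up to 0.0818 to 0.101 CPM at the floor of 3 counts. Prok1 was too scarce to test, at 0, 0, 0.0824 and 0 CPM in GDX replicates 1 to 4. In E2 replicates 1 to 3 it was 0.462, 0.0989 and 0.396 CPM, with E2 replicate 2 and GDX replicate 3 at that floor.

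Downstream of the Gq-coupled receptors, 2 of 19 tested genes rose, 2 fell and 15 did not pass, beside 2.55% higher and 1.33% lower over all genes. The median log2 fold change of the 19 was 0.03. This list and the cyclic AMP list were also made with earlier results known, so their shares are descriptions only. Prkce, a protein kinase C gene, was higher at 159 ± 11.2 against 244 ± 16.2 CPM (log2 ratio 0.62, adjusted p = 0.000607), and Rgs4 from 180 to 232 CPM (0.37, adjusted p = 0.0485). Rgs2, whose product shuts off Gq, fell from 54.4 ± 5.01 to 34.5 ± 2.90 CPM (−0.66, adjusted p = 0.00294), and Itpr3, a calcium release channel gene, from 15.2 to 6.74 CPM (−1.17, adjusted p = 0.026). Gnaq and Gna11, which encode the alpha subunits themselves, had log2 fold changes of −0.01 and 0.03 and did not pass. Leaving out GDX replicate 1, E2 replicate 1 or E2 replicate 2 left 2 calls in place of 4. On the cyclic AMP arm 1 of 23 genes rose and none fell, a share close to the 3.88% called over all genes, with a median of −0.01. It was Prkacb, a catalytic subunit gene of protein kinase A, from 680 to 935 CPM (0.46, adjusted p = 0.00132), and Gnas and Gnal did not pass at −0.07 and 0.10, both overlapping genes on the opposite strand.

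Libraries held 29207544 to 36213127 counts. Kiss1, which drives the Cre, ranged from 44.5 to 114 CPM in GDX and from 379 to 485 in E2, although it shares exons with Gm28040 on the same strand and its own level is uncertain. Rpl22, the tagged gene, was 30.7 and 34.5 CPM. Over all genes 467 rose and 243 fell, against 385 and 352 with library sizes alone. The 6 astrocyte markers summed to 738 to 2620 CPM in GDX, highest in GDX replicates 1 (2050) and 4 (2620), and to 518 to 606 CPM in E2, and the 6 endothelial markers to 234 to 553 and 136 to 225 CPM. Prok2 and Oxtr kept log2 fold changes of 1.90 and 1.75 without those GDX replicates (adjusted p = 1.08e-05 and 7.67e-05), and of 1.60 and 1.81 with the non-neuronal covariate (0.00184 and 0.00384).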

How the data were processed

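The authors' deposited table held expected counts per gene and library, of which 33.1% of non-zero values were not whole. Per the submitters' processing notes Trimmomatic 0.38, STAR 2.6.0a, RSEM 1.3.0 and build mm10 were used, with roles not stated. Which annotation was used is not given there. Genes were matched to GENCODE vM21 on GRCm38 (55203 of 55384). Libraries were polyadenylated and unstranded, per the labels' protocols.

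Counts were rounded and E2 was compared with GDX in R 4.3.3 with edgeR 4.0.16 (TMM, filterByExpr with a minimum count of 10 and total of 15, robust quasi-likelihood test), with Benjamini-Hochberg adjustment over 18282 genes and calls at 0.05. Fold changes use a prior count of 0.125. Depth was 29207544 to 36213127 counts, and 3 counts correspond to 0.0818 to 0.101 CPM, for counting error only. Alternatives used DESeq2 1.42.0, limma 3.58.1 (voom), other scalings, filters and covariates, and left-out libraries. Named beside the 10 genes were, from each list, up to 4 called genes of largest change and the first 2 not called, and the 3 genes most alike each called gene. Members and lists were chosen with earlier results of these data known. Replicate numbers did not pair the libraries.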

Additional observations from a re-analysis of the deposited data

Results flagged for a closer look

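Prokr2 in GDX replicate 4, at 7.01 CPM, stood apart from the other 3 GDX libraries (5.94 to 6.00 CPM), by a gap of 0.942 of the group's range which is above Dixon's 95% critical value for 4 libraries. That test flags about 1 in 20 groups by chance, and the 10 genes were each examined once. The other 3 GDX libraries agreed so closely that the gap is small in CPM. In the deposited column names GDX replicate 4 carries a number apart from the consecutive numbers of all other libraries, for a reason not given. Whether this bears on its values was not tested.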

How the results depend on the processing

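All 166 alternative fits of single genes kept the direction of the reported value, and 158 kept their side of the threshold. The other 8 moved past it and are given beside Avp, Avpr1a, Vip, Prokr1 and Prokr2. Vipr1 was given no adjusted p by the DESeq2 Wald test, and that fit is counted among the 158 as not passing. A filter at a mean of 5 CPM left 6 of the 10 genes to test and gave no value for the other 4. The 2 called of 10 were 5 without a low-count filter and 5 with the DESeq2 Wald test, and 2 without any 1 library. Over all genes the 710 calls became 1609 without a filter, 1391 with DESeq2, 1109 with limma-voom, 300 with the covariate and 360 at an adjusted p of 0.01, and lay between 364 and 974 with 1 library left out. The 2 called among other peptide system genes became 5 without a filter, 4 with DESeq2, 4 with limma-voom, 1 without robust dispersions, 1 with the covariate, 1 at 0.01, and 1 to 3 with 1 library left out. The 4 called Gq genes became 2 with the covariate, 2 at 0.01 and 2 to 6 with 1 library left out. The 1 called Gs gene became 2 with library sizes alone, 2 without a filter, 2 with DESeq2, and was 1 without any 1 library. The causes were not tested. With the replicate number as a block 612 genes and the same count of 2 among the 10 were called. Same-numbered libraries had deviations that correlated at −0.0366, −0.124 and −0.143, so the numbers gave no pairing, and no E2 library correlated best with its own number. Counts of Prokr1 and Vipr1 limit what can be detected for these genes.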
